A study of Mus musculus with 13 samples.

Results

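The genes described here are the mouse genes encoded by the mitochondrial genome itself. They were chosen by symbol, as every gene whose GENCODE name starts with mt-, and matched by Ensembl identifier. All 37 were found among the 48709 gene rows of each count table: 13 protein-coding genes, 2 ribosomal RNA (rRNA) genes and 22 transfer RNA (tRNA) genes. The mitochondrial genome is a small circle that is read from both strands into long precursor RNAs. The tRNAs sit between the other genes like punctuation, and their excision releases the rRNAs and the messenger RNAs, which receive short poly(A) tails. The proteins are core subunits of respiratory complexes I, III, IV and V, which motoneurons depend on for the energy their long axons and synapses use, and mitochondria are among the organelles damaged by mutant SOD1.

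Every mouse in the series carried the SOD1-G93A transgene, a mutant form of human superoxide dismutase that causes motoneuron disease, so there was no mouse without the disease gene. The AAV-miR SOD1 group (4 libraries) received, into the brain ventricles on postnatal day 2, an adeno-associated virus that expresses in astrocytes an artificial microRNA against human SOD1; the promoter that drives it is not given in the sources used here. The AAV-miR ctrl group (5 libraries) received the control vector and the Non-injected group (4 littermates) received nothing. At day 65, pools of 500 motoneurons from each mouse were isolated by laser from cresyl violet-stained 14 µm sections of lumbar cord, frozen together with the surrounding vertebrae, and their RNA was amplified and sequenced. The libraries held 13.9 to 37.4 megacounts assigned to genes. Replicate numbers in the titles ran from 1 to 6, and the 4 libraries numbered 5 or 6 were all controls and the deepest of the 13, at 29.7 to 37.4 megacounts. In 2 of 13 tables, the AAV-miR ctrl and Non-injected libraries numbered 3, the column header named a group other than the label; the labels were followed. Each library is the pool of 1 mouse, as the labels give it, so p-values measure the spread between mice together with that of capture and amplification.

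The captured material was not motoneuron RNA alone. The 6 motoneuron markers were present in all libraries, with a summed level in CPM (the counts-per-million scale, relative to all counts assigned to genes) of 486 to 1204 in AAV-miR SOD1, 785 to 2305 in AAV-miR ctrl and 849 to 2322 in Non-injected libraries. The 6 skeletal muscle markers, led by Acta1, the actin of the muscle thin filament, were also all present and summed to 7356 to 80123 CPM, 18620 to 88264 CPM and 27407 to 74252 CPM in the same order. The 6 erythroid markers summed to 19389 to 51532 CPM in AAV-miR SOD1 libraries, 3599 to 30152 CPM in AAV-miR ctrl and 5552 to 18938 CPM in Non-injected libraries. Mitochondrial RNA of muscle or of other cells carries the same sequence as that of motoneurons, so the values below are those of the captured mixture, and fewer cells of a type and less RNA per cell cannot be told apart in them. Mouse Sod1 stood at 176 to 321 CPM, 211 to 323 CPM and 217 to 473 CPM, but nothing states how reads from the human gene were handled, so this gene does not check the labels.

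Of the 37 genes, 25 had counts and 12 were listed at 0 in all 13 libraries. Among the protein-coding genes the 5 at 0 were mt-Co2 and mt-Co3, subunits of cytochrome c oxidase (complex IV), mt-Atp6 and mt-Atp8, both mitochondrially encoded subunits of ATP synthase (complex V), and mt-Nd4l, a complex I subunit. A count of 0 allows up to 0.0802 CPM in the deepest library and 0.216 CPM in the shallowest, counting error only. The other 8 protein-coding genes stood far above that floor in the same libraries. A stretch of mouse chromosome 1 carries a near-identical copy of this part of the mitochondrial genome. In the GRCm38 annotation, 7 pseudogenes between chr1:24611535-24616197, all on the minus strand, lie in the order of mt-Co1, mt-Co2, mt-Atp6, mt-Co3, mt-Nd3, mt-Nd4l and mt-Nd4. From the first to the last, their matches span mitochondrial bases chrM:6381-11042, or 4662 bases. Bases between the pseudogenes were not compared.

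The first 90 bases of mt-Co2, which encodes the subunit that takes electrons from cytochrome c, are shown with those of its chromosome 1 copy because both are the same letter for letter. Capitals would mark differing bases, and there are none.
mt-Co2, chrM:7013-7102, plus strand: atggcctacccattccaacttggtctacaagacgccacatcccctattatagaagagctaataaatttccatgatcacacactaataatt
Gm28661, chr1:24615476-24615565, minus strand: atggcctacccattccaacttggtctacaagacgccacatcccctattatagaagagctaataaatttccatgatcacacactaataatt

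The first 60 bases of mt-Nd3, a complex I subunit, are shown because this gene kept some counts although its copy matches it almost throughout. The only difference over the copy's 345 bases is T3C, counted from the first base of mt-Nd3 with its own base first, and it is in capitals.
mt-Nd3, chrM:9459-9518, plus strand: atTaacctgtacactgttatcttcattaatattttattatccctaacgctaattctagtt
Gm28438, chr1:24613060-24613119, minus strand: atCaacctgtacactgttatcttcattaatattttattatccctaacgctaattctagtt

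Along the genome the zeros followed the copied stretch closely. Of the 11 genes that lie wholly inside it, 9 were at 0 in every library, against 3 of the 24 genes outside it and neither of the 2 genes that cross its edges, mt-Co1 and mt-Nd4. The copies of mt-Co2, mt-Atp6, mt-Co3, mt-Nd4l and mt-Nd4 were identical to the mitochondrial sequence over their whole length, that of mt-Nd3 was 99.71% identical and that of mt-Co1 98.78%. When every 50-base window of each gene was looked up among the annotated transcripts of other genes, all windows of mt-Co2 were found elsewhere, as were 99.9% of those of mt-Co3, 99.5% of mt-Atp6, 98.8% of mt-Nd4l and 98.0% of mt-Nd3. The corresponding shares were 62.2% for mt-Nd4, 51.1% for mt-Co1, 8.19% for mt-Nd2 and 7.61% for mt-Nd5, and 0% for mt-Nd1, mt-Cytb and mt-Nd6. For mt-Atp8, at chrM:7766-7969, the annotated transcripts held no window. The copy of mt-Atp6 matches chrM:7927-8604 and so covers the end of mt-Atp8, over a piece shorter than the 50-base window. The rest of mt-Atp8 lies in the copied stretch between annotated pseudogenes, and for that part the transcripts alone did not show a copy. The tRNA genes mt-Ts1, mt-Td, mt-Tk and mt-Tg, also inside the stretch and at 0, had no 50-base window found elsewhere either. For them, too, the transcripts alone did not show a copy. The pseudogenes themselves collected 0 to 11 counts per library.

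Each table has a row for reads aligned to more than 1 place, which were counted in no gene. It held 42.3% to 56.8% of the sum of the table's gene and summary rows. The summary rows for reads not aligned and for low alignment quality were at 0 in all 13 libraries, so that sum may leave out unaligned reads. How many of the reads aligned to more than 1 place were mitochondrial was not tested, since the tables do not give their positions. The zeros inside the copied stretch were not read as levels of RNA, so complex V and most of complex IV could not be described. For mt-Co1 and mt-Nd4 the counts came from a gene of which a large part is shared. Divided by the number of unshared 50-base windows in place of gene length, their levels were higher. The median was 4191 in place of 1983 CPM per kilobase for mt-Co1 and 5546 in place of 2020 for mt-Nd4. Part of the rise comes from the divisor, since mt-Nd1, with no shared window, went from 7367 to 7764.5. With 100-base windows the medians were 3064 for mt-Co1 and 5546 for mt-Nd4, and read length is not given.

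**Figure D1:**
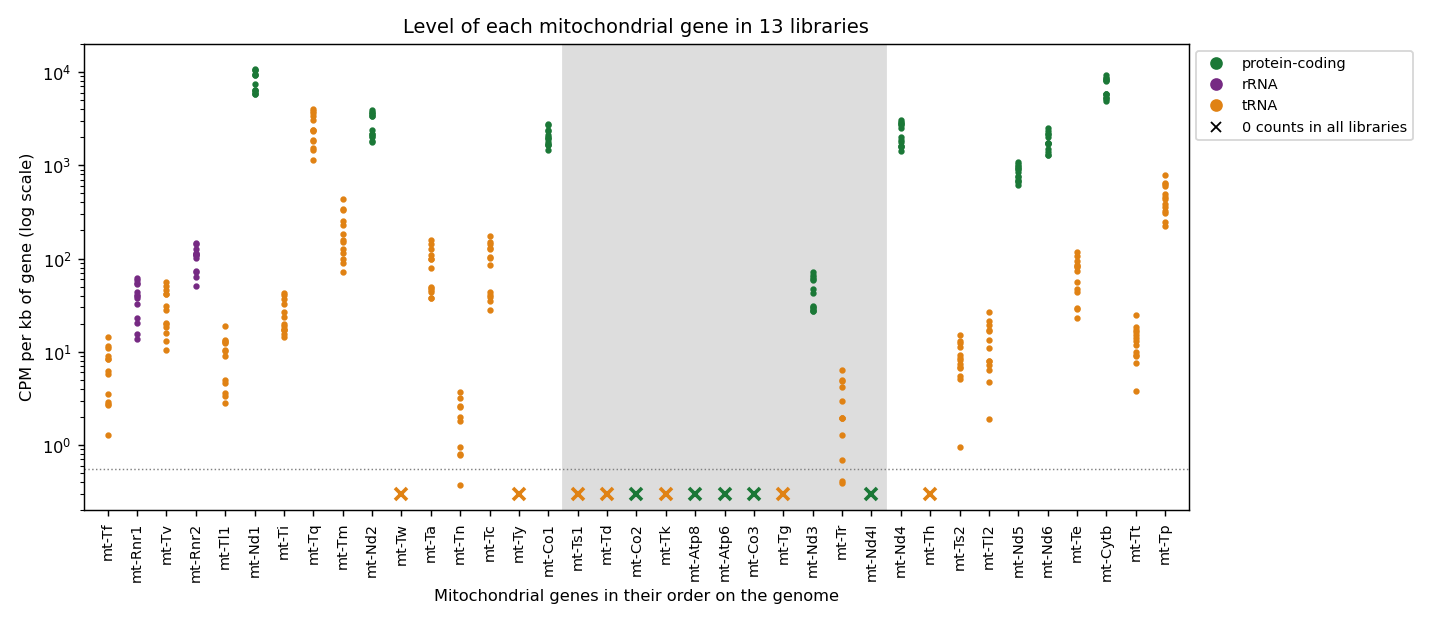
Level of each of the 37 mitochondrial genes in each of 13 libraries (points), in CPM per kilobase of gene on a log axis, with the genes in their order on the mitochondrial genome. Crosses below the dotted line mark the 12 genes with 0 counts in every library; for other genes, libraries at 0 are not drawn. The grey band covers the genes that lie wholly inside the stretch copied on chromosome 1, where 9 of 11 genes were at 0.

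Among the protein-coding genes that were counted, mt-Nd1, a complex I subunit, and mt-Cytb, the only mitochondrially encoded subunit of complex III, dominated. Together they took 56.3% to 59.3% of all mitochondrial protein-coding counts in every library. Per kilobase of gene the median level over the 13 libraries was 7367 CPM for mt-Nd1, 5854 for mt-Cytb, 2373 for mt-Nd2, 2020 for mt-Nd4, 1983 for mt-Co1, 1720 for mt-Nd6, 845 for mt-Nd5 and 43.2 for mt-Nd3. The neighbours mt-Nd2, mt-Nd4, mt-Co1 and mt-Nd6 in that order overlapped widely between libraries. The place of mt-Co1 and mt-Nd4 changes when the unshared windows used above are the divisor. For mt-Nd3, 98.0% of the 50-base windows were shared, so its low place was not read as a low level of RNA. By complex, complex I genes made up 56.7% to 61.8% of the counts, complex III 27.4% to 31.2% and complex IV 9.41% to 13.8%, the last from mt-Co1 alone.

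The 2 mitochondrial rRNAs, which form the core of the small (mt-Rnr1) and large (mt-Rnr2) subunits of the mitochondrial ribosome, were far lower per kilobase than most of the messenger RNAs in these libraries, at medians of 40.1 CPM for mt-Rnr1 and 110 CPM for mt-Rnr2. The library kit starts complementary DNA from poly(A), and how strongly each RNA class was captured was not tested, so this order describes the libraries and not the cells. In counts, mt-Rnr1 ranged from 474 to 1297 and mt-Rnr2 from 2414 to 5384 per library.

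The tRNA signal was carried by few genes. The glutamine tRNA mt-Tq alone took 68.8% to 76.0% of the tRNA counts, and with the proline tRNA mt-Tp and the methionine tRNA mt-Tm it took 86.0% to 93.5%. Genes on the light strand, 8 of the 22, held 89.3% to 94.0% of the tRNA counts. The kit does not keep the strand, so RNA of a light-strand gene and RNA read from the opposite strand across the same place cannot be told apart; mt-Tq lies opposite the heavy-strand precursor between mt-Nd1 and mt-Nd2. The median level of mt-Tq was 2399 CPM per kilobase, beside 2373 for mt-Nd2, while mt-Tp stood at 436, mt-Tm at 157 and the other 12 tRNA genes with counts at 0.949 to 101. The 3 leading tRNAs and the 3 tRNAs that were at 0 outside the copied stretch are shown side by side, on the gene strand and in lower case with no base marked. All 6 are of like length, 67 to 71 bases.
mt-Tq, chrM:3772-3842, minus strand: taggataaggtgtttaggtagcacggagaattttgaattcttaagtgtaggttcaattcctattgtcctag
mt-Tp, chrM:15356-15422, minus strand: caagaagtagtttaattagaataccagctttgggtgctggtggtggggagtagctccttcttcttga
mt-Tm, chrM:3845-3913, plus strand: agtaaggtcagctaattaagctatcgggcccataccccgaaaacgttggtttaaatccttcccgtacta
mt-Tw, chrM:4950-5016, plus strand: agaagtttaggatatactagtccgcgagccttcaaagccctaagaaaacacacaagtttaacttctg
mt-Ty, chrM:5260-5326, minus strand: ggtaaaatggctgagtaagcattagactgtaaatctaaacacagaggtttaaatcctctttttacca
mt-Th, chrM:11546-11612, plus strand: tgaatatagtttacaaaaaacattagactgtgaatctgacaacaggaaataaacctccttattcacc

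Turning to the groups, the share of counts taken by mitochondrial genes did not separate the AAV-miR SOD1 mice from either control group. The 8 counted protein-coding genes took 2.05%, 2.07%, 3.13% and 3.14% of counts in the AAV-miR SOD1 libraries, a mean of 2.60% ± 0.622 (SD, n = 4). They took 2.21%, 3.26%, 3.48%, 2.15% and 2.42% in the AAV-miR ctrl libraries numbered 1, 3, 4, 5 and 6, a mean of 2.71% ± 0.623 (SD, n = 5). In the Non-injected libraries numbered 2, 3, 5 and 6 they took 3.55%, 3.43%, 1.93% and 2.24%, a mean of 2.79% ± 0.821 (SD, n = 4). Each group held both low and high libraries, the groups overlapped, and the differences between their means (−0.107, −0.189 and −0.0813 percentage points, first minus second, for the treated group against AAV-miR ctrl and then Non-injected, and for AAV-miR ctrl against Non-injected) were smaller than the spread between libraries. None of the 3 kept its sign when single libraries were left out: they became 0.0871 without AAV-miR ctrl library 4 and 0.0657 and 0.173 without Non-injected library 2. No test was made on these sums.

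The rRNA genes took 0.0210% ± 0.00121 of counts in AAV-miR SOD1 (SD, n = 4), 0.0193% ± 0.00556 in AAV-miR ctrl (SD, n = 5) and 0.0197% ± 0.0106 in Non-injected libraries (SD, n = 4). For the tRNA genes the corresponding shares were 0.0227% ± 0.00611, 0.0275% ± 0.0105 and 0.0234% ± 0.0131. In both classes the 4 AAV-miR SOD1 libraries fell inside the range of the controls. The narrow spread of the rRNA share in AAV-miR SOD1, from 0.0192% to 0.0218%, contrasted with 0.00943% to 0.0289% in Non-injected libraries, where the values of libraries 2 and 3 were both near the top of the range and those of libraries 5 and 6 both at the bottom.

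**Figure D2:**
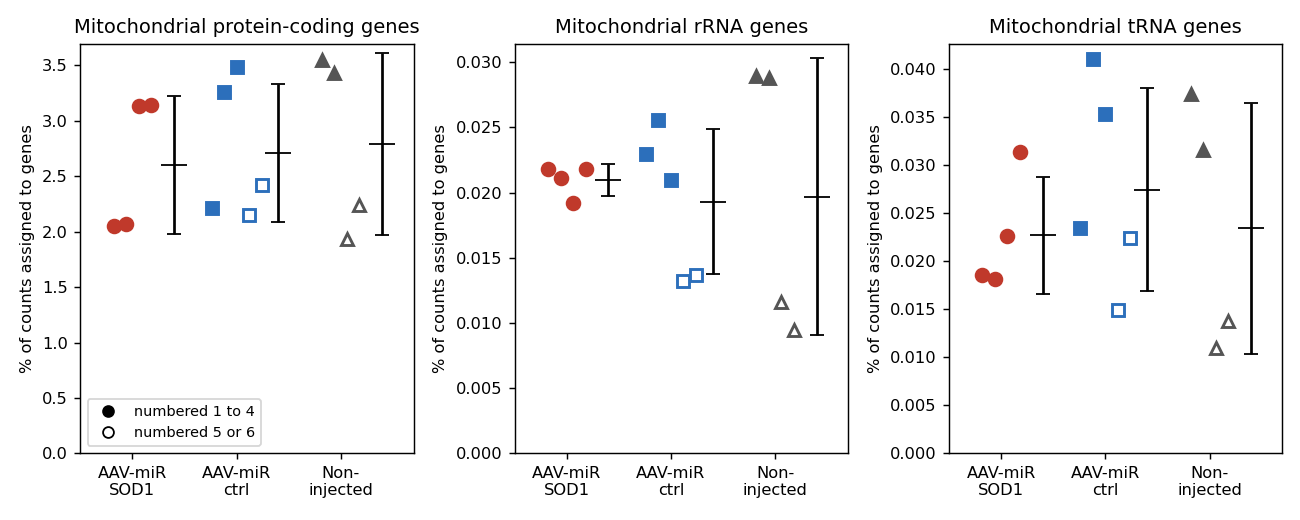
Share of all counts assigned to genes that fell on mitochondrial protein-coding, rRNA and tRNA genes, 1 point per library, with the group mean and SD as bars to the right (n = 4, 5 and 4). Open points are libraries numbered 5 or 6; these lie at the bottom of the rRNA panel and mostly low in the other panels, where AAV-miR ctrl library 6 stands at 2.42% and 0.0224%, and all 3 groups overlap.

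Tested gene by gene, no mitochondrial gene passed the threshold in any comparison. Of the 37 genes, 23 passed the filter on low counts (8 protein-coding, 2 rRNA and 13 tRNA genes); mt-Tn and mt-Tr had 0 to 7 counts per library and did not. In edgeR's quasi-likelihood test with Benjamini-Hochberg adjustment over 17403 genes, 0 of 23 passed an adjusted p of 0.05 in each of the 3 comparisons, where 0% of all genes did. At an unadjusted p under 0.05 the count was also 0 of 23 in each, against 14.5% of all genes for AAV-miR SOD1 versus AAV-miR ctrl, 20.9% for AAV-miR SOD1 versus Non-injected and 3.61% for AAV-miR ctrl versus Non-injected. In no case did 2 groups of libraries separate fully in log2 CPM, which 3.73%, 11.7% and 0.816% of all genes did in the same order of comparisons. DESeq2, which called 173, 996 and 2 of all genes, and limma-voom with sample quality weights, which called 0 in each, likewise called 0 of the 23 mitochondrial genes, also without adjustment. The 23 genes come from shared precursors and the same libraries, so they are not independent of each other.

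The level of mt-Nd1 shows what lies behind these counts. It was 5519, 5644, 8804 and 8795 CPM in the AAV-miR SOD1 libraries, 6057, 9159, 10231, 6150 and 7050 CPM in the AAV-miR ctrl libraries and 9952, 10141, 5512 and 6175 CPM in the Non-injected libraries. Each group held low libraries and the groups overlapped, but the 4 highest libraries, from 9159 CPM up, were all controls. The log2 fold change of mt-Nd1 was −0.13 (95% confidence interval −0.89 to 0.62) for AAV-miR SOD1 against AAV-miR ctrl and −0.18 (−0.97 to 0.62) against Non-injected. For mt-Cytb each group also held low libraries and the groups overlapped. Its levels were 6229, 6075, 9786 and 9128 CPM, then 6697, 9297, 9761, 5952 and 6638 CPM, then 10546, 9494, 5549 and 6626 CPM. The highest mt-Cytb libraries were not all controls. Only a Non-injected library, at 10546 CPM, was above the AAV-miR SOD1 library at 9786 CPM. For mt-Cytb the log2 fold changes were −0.00 (−0.75 to 0.74) and −0.08 (−0.86 to 0.70).

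The gene of complex IV that could be counted, mt-Co1, which holds the site where oxygen is reduced, had the smallest p of the protein-coding genes in both comparisons with AAV-miR SOD1. Its levels were 2624, 2541, 2949 and 3277 CPM in AAV-miR SOD1, 2271, 4169, 3660, 2739 and 3064 CPM in AAV-miR ctrl and 4241, 3590, 2554 and 3082 CPM in Non-injected libraries. The AAV-miR SOD1 values lay within those of AAV-miR ctrl and overlapped those of Non-injected, whose lowest value was above that of AAV-miR SOD1 library 2. For mt-Co1 in AAV-miR SOD1 the log2 difference from AAV-miR ctrl was −0.21 ± 0.29 (SE, edgeR adjusted p = 0.785) and from Non-injected −0.29 ± 0.31 (adjusted p = 0.63). For AAV-miR ctrl against Non-injected it was −0.08 ± 0.29, with an adjusted p of 1.00.

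The only protein-coding gene of the light strand, mt-Nd6, a complex I subunit, overlaps the end of mt-Nd5 and cannot be told from antisense RNA here. It stood at 729, 892, 875 and 1049 CPM in AAV-miR SOD1, 892, 1114, 1215, 782 and 894 CPM in AAV-miR ctrl and 1129, 1312, 670 and 677 CPM in Non-injected libraries. Its log2 fold changes were −0.19 ± 0.27, −0.15 ± 0.29 and 0.05 ± 0.27 in the 3 comparisons, with edgeR adjusted p of 0.789, 0.816 and 1.00. Of the remaining protein-coding genes, mt-Nd3 had the smallest p between the control groups, with a log2 fold change of −0.13 ± 0.41 and an adjusted p of 1.00.

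The large rRNA mt-Rnr2 had the smaller p of the 2 rRNAs in each comparison. Its levels were 180, 172, 161 and 176 CPM in AAV-miR SOD1 libraries, 179, 203, 174, 113 and 115 CPM in AAV-miR ctrl libraries and 233, 229, 101 and 81.0 CPM in Non-injected libraries. The treated libraries sat close together in the middle of the controls. The log2 fold changes of mt-Rnr2 were 0.09 ± 0.32, 0.04 ± 0.34 and −0.05 ± 0.32 in the 3 comparisons, with edgeR adjusted p of 0.932, 0.962 and 1.00. The small rRNA mt-Rnr1 showed the same arrangement at 38.3, 39.0, 31.2 and 42.2 CPM, then 50.7, 52.7, 35.9, 19.4 and 21.9 CPM, then 56.1, 58.9, 14.97 and 13.2 CPM.

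Against AAV-miR ctrl the SE of the tRNA genes ran from 0.38 for mt-Tp to 0.70 for mt-Tl2, wider for 11 of the 13 than for any protein-coding or rRNA gene. The 13 tested tRNA genes ran from −0.99 to −0.12 in log2 fold change for AAV-miR SOD1 against AAV-miR ctrl, and all 13 point estimates were below 0, but every interval held 0. Against Non-injected, 10 of 13 estimates were below 0, and between the control groups all 13 were above 0, again with 0 inside each interval; both comparisons with AAV-miR ctrl use the same 5 control libraries. The phenylalanine tRNA mt-Tf had the smallest p against AAV-miR ctrl, at −0.99 ± 0.69 (edgeR adjusted p = 0.524), on 2 to 17 counts per library. Against Non-injected it was mt-Tm, at −0.53 ± 0.56 (adjusted p = 0.629), and between control groups the threonine tRNA mt-Tt, at 0.78 ± 0.52 (adjusted p = 1.00). The most abundant tRNA, mt-Tq, stood at 133, 130, 172 and 237 CPM in AAV-miR SOD1, 166, 286, 257, 108 and 170 CPM in AAV-miR ctrl and 275, 217, 80.2 and 104 CPM in Non-injected libraries, with the groups overlapping.

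By class, the median log2 fold change of the tested genes was −0.10 for protein-coding, 0.05 for rRNA and −0.37 for tRNA genes in AAV-miR SOD1 against AAV-miR ctrl, beside −0.04 over all genes. Against Non-injected it was −0.11, 0.02 and −0.13, beside −0.09 over all genes. Between the control groups it was −0.03, −0.02 and 0.28, beside −0.01 over all genes. The direction of the median over all 23 genes turned with single libraries and with some other choices; how the class medians moved was not computed. Between the control groups the median of all 23 genes was 0.11, and it was −0.04 when the AAV-miR ctrl and Non-injected libraries numbered 3 were exchanged as their headers have it, −0.12 and −0.0065 without AAV-miR ctrl library 3 or 4, and −0.10 and −0.081 without Non-injected library 5 or 6. The same median was −0.15 within libraries numbered 1 to 4, and −0.0019 with the erythroid sum added to the fit as described below. For AAV-miR SOD1 against AAV-miR ctrl it was −0.21, and 0.020 without AAV-miR ctrl library 3. Against Non-injected it was −0.09, and 0.17, 0.062 and 0.022 without Non-injected library 2, Non-injected library 3 or AAV-miR SOD1 library 2, and 0.27 in limma-voom.

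**Figure D3:**
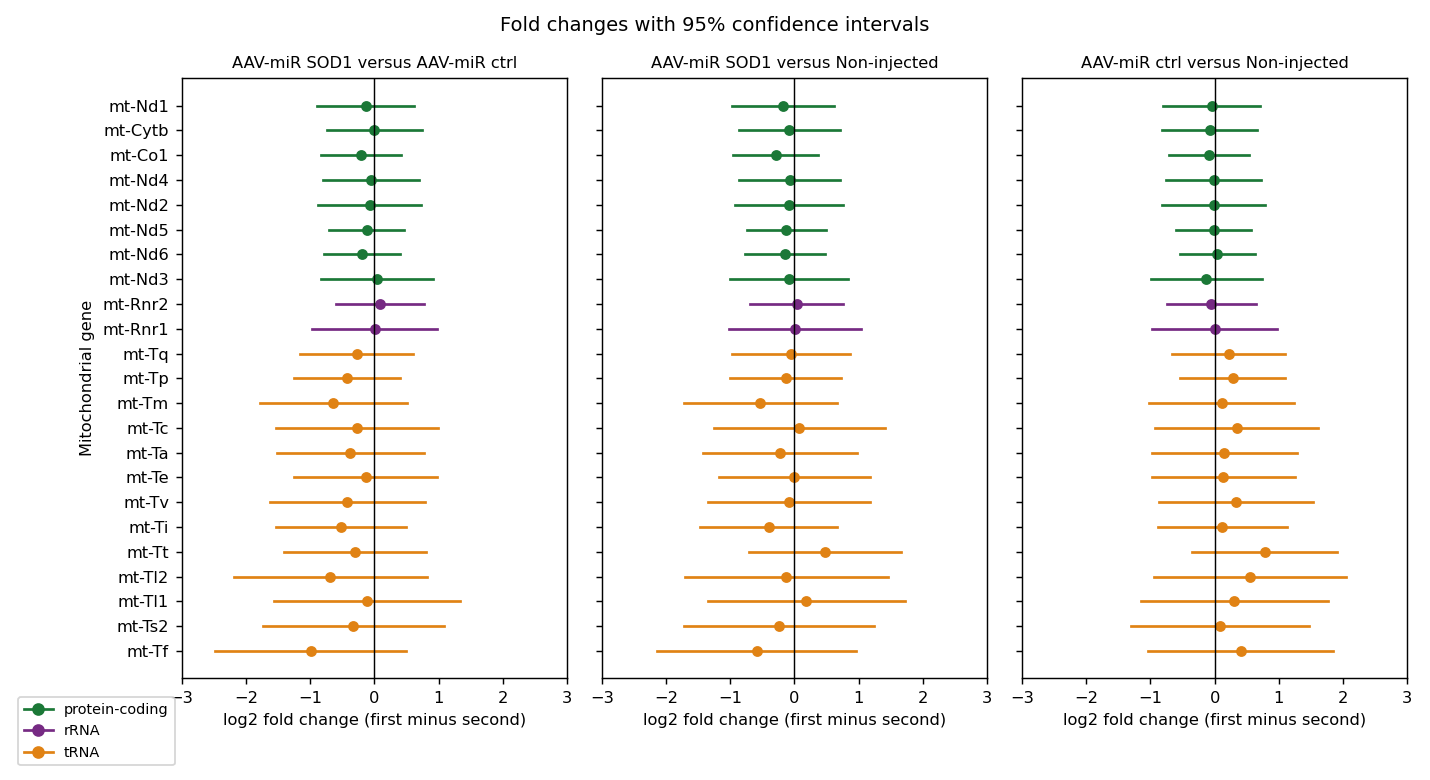
Log2 fold changes (points) with 95% confidence intervals (lines) of the 23 tested mitochondrial genes in the 3 comparisons, first group minus second, coloured by class. Every interval includes 0, and those of tRNA genes such as mt-Tf, at −0.99 ± 0.69 in the left panel, are among the widest.

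The balance between classes of mitochondrial RNA also overlapped between groups. For each 1000 protein-coding counts there were 8.48 ± 2.27 rRNA counts in AAV-miR SOD1 (SD, n = 4), 7.21 ± 1.97 in AAV-miR ctrl (SD, n = 5) and 6.69 ± 1.98 in Non-injected libraries (SD, n = 4). The tRNA counts per 1000 protein-coding counts were 8.77 ± 1.14, 9.91 ± 2.06 and 7.89 ± 2.37. Counts of mt-Nd6 per 100 counts of the heavy-strand protein-coding genes, a rough measure of light-strand against heavy-strand output as far as these unstranded counts show it, were 3.63 ± 0.676, 3.79 ± 0.260 and 3.49 ± 0.38. The ratio of mt-Rnr1 to mt-Rnr2, which leave the same precursor next to each other, was 21.8 ± 1.99, 22.3 ± 4.72 and 20.2 ± 5.43 per 100. In each of the 4 ratios the difference between any pair of groups was below the pooled SD of their libraries.

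Another contrast among the mitochondrial genes, seen within the controls, followed the library numbers. The 4 control libraries numbered 5 or 6 were all below the 5 control libraries numbered 1 to 4 for 3 of 8 protein-coding genes (mt-Nd3, mt-Nd4 and mt-Cytb), for both rRNA genes and for 8 of 13 tRNA genes, and for no gene were they all above. Over all 17403 genes, 3.40% were lower in this way and 3.26% higher. This split was looked at after values had been seen, and the mitochondrial genes share precursors, so the counts are a description. In controls, mt-Rnr1 ranged from 13.2 to 21.9 CPM in libraries 5 and 6 and from 35.9 to 58.9 CPM in libraries 1 to 4. The cysteine tRNA mt-Tc ranged from 1.84 to 2.66 CPM against 6.84 to 11.4 CPM. Protein-coding genes were closer: mt-Cytb ranged from 5549 to 6638 CPM against 6697 to 10546 CPM, and mt-Co1 overlapped, at 2554 to 3082 against 2271 to 4241 CPM.

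What the numbers stand for is not stated in the labels. Libraries numbered 5 or 6 were also the deepest. Their mean share of reads aligned to more than 1 place was 44.7%. Among libraries numbered 1 to 4 it was 51.5% in AAV-miR ctrl and 51.8% in Non-injected. Erythroid sums ran from 3599 to 8441 CPM in libraries 5 and 6 and from 5552 to 30152 CPM in controls numbered 1 to 4. Motoneuron sums ran from 1555 to 2305 CPM in libraries 5 and 6. In controls numbered 1 to 4 they ran from 785 to 983 CPM, except for Non-injected library 3 at 2322 CPM. The overlap in motoneuron sums thus came from that library alone. The part of any of these in the mitochondrial levels was not tested. Non-injected library 5 was the lowest of the 13 for 15 of the 23 genes, and AAV-miR ctrl library 3 the highest for 10.

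**Figure D4:**
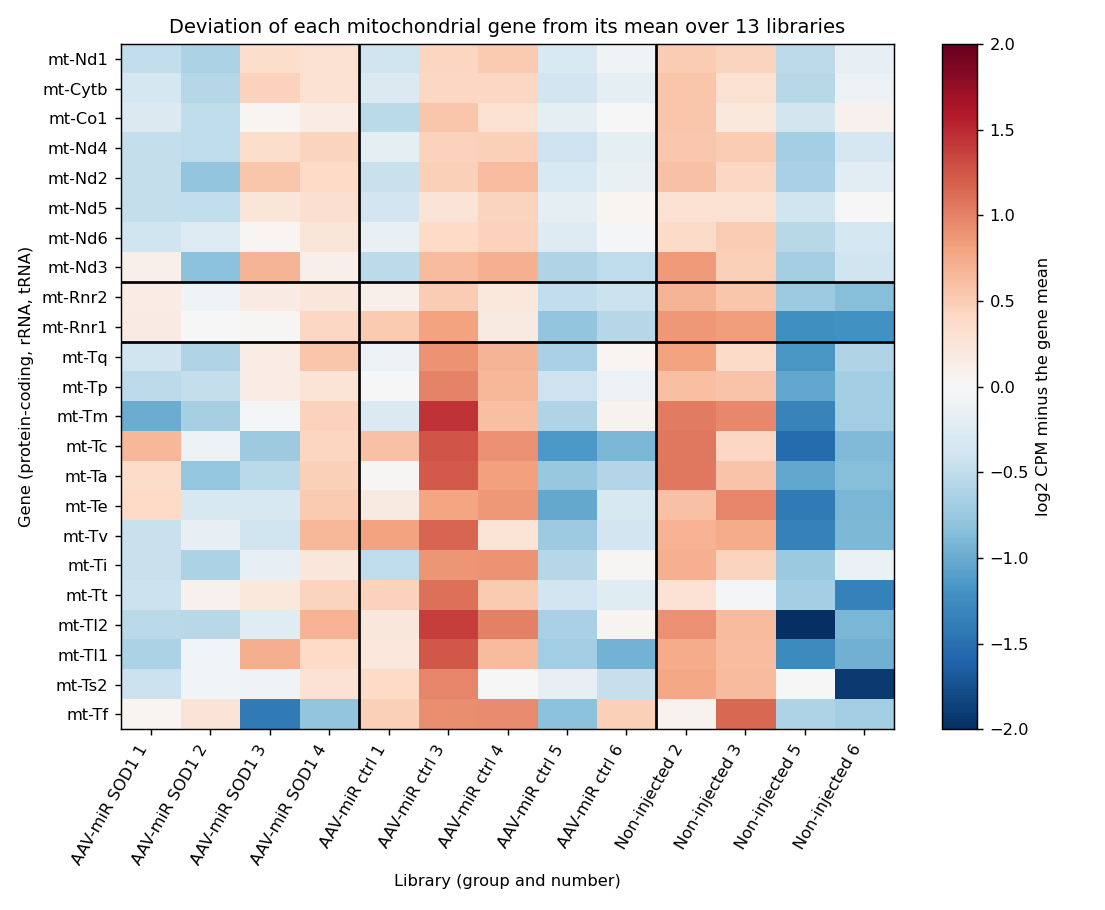
Log2 CPM of the 23 tested mitochondrial genes in each library, as the deviation from the gene's mean over 13 libraries (red above, blue below), with genes ordered by class and level and lines between groups and classes. The columns of libraries 5 and 6 of both control groups are mostly blue. The colours use TMM-scaled values. In CPM without that scaling, Non-injected library 5 was the lowest for 15 genes, and the order in the figure can differ.

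Since no AAV-miR SOD1 library carried a number above 4, the comparison was also made within libraries 1 to 4. The protein-coding share was then 2.60% ± 0.622 in AAV-miR SOD1 (SD, n = 4), 2.99% ± 0.681 in AAV-miR ctrl (SD, n = 3) and 3.49% ± 0.0879 in Non-injected libraries (SD, n = 2). The rRNA share was 0.0210%, 0.0232% and 0.0289% and the tRNA share 0.0227%, 0.0333% and 0.0345% in the same order. All 4 AAV-miR SOD1 libraries were below both Non-injected libraries in each of the 3 shares: at 2.05% to 3.14% against 3.43% and 3.55% for protein-coding genes, 0.0192% to 0.0218% against 0.0288% and 0.0289% for rRNA, and 0.0182% to 0.0314% against 0.0316% and 0.0374% for tRNA. Against the 3 AAV-miR ctrl libraries each share overlapped. Gene by gene, 13 of 23 were lower in all 4 AAV-miR SOD1 libraries than in both Non-injected libraries, where 8.67% of all 17403 genes were, and 2 of 23 (mt-Tf and mt-Tt) were lower than in all 3 AAV-miR ctrl libraries, where 2.90% were. These counts were made after the shares had been seen and rest on 2 Non-injected libraries and on genes with shared precursors. In this subset all 23 genes had point estimates below 0 for AAV-miR SOD1 against each control group, with medians of −0.55 and −0.59, beside −0.04 and −0.00 over the 18274 genes tested there. None passed an adjusted p of 0.05. At an unadjusted p under 0.05, 2 of 23 were lower against AAV-miR ctrl (mt-Tm at −0.96 ± 0.43 and mt-Tp at −0.71 ± 0.28, edgeR adjusted p = 0.894 for both), where 2.43% of all genes were. Against Non-injected, which then had 2 libraries, 3 of 23 were lower (mt-Rnr1 at −0.67 ± 0.24, mt-Rnr2 at −0.48 ± 0.21 and mt-Tm at −1.20 ± 0.47, adjusted p of 0.29, 0.314 and 0.299), where 7.64% of all genes were.

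Within libraries 1 to 4, the libraries with the lowest skeletal muscle sums had the lowest mitochondrial protein-coding shares and the highest erythroid sums. The 3 libraries with the lowest muscle sums were AAV-miR SOD1 libraries 2 and 1 and AAV-miR ctrl library 1, at 7356, 20626 and 18620 CPM, and their mitochondrial protein-coding shares were 2.07%, 2.05% and 2.21%. The other 6 had muscle sums of 41554 to 88264 CPM and mitochondrial shares of 3.13% to 3.55%. Among these 6 the share did not rise steadily with the muscle sum. Non-injected library 3, at 41554 CPM, had 3.43%, and AAV-miR ctrl library 3, at 88264 CPM, had 3.26%. The same 3 libraries had the highest erythroid sums, at 51532, 49097 and 30152 CPM, against 5552 to 29588 CPM in the other 6. AAV-miR SOD1 libraries 1 and 2 also had the largest shares of reads aligned to more than 1 place, at 55.4% and 56.8%. In libraries 5 and 6 the muscle sums ran from 27407 to 63466 CPM with shares of 1.93% to 2.42%, below libraries 1 to 4 of like muscle sum. With the log2 muscle sum added as a covariate in the edgeR fit, a step chosen after these levels were seen, again 0 of 23 genes passed at an adjusted or an unadjusted p of 0.05. Of all 17403 genes, 2315 passed the unadjusted threshold in that fit against AAV-miR ctrl and 3412 against Non-injected. The median log2 fold change of the 23 genes then moved from −0.21 to 0.01 for AAV-miR SOD1 against AAV-miR ctrl, with 12 estimates above 0 in place of 3, and from −0.09 to 0.11 against Non-injected, with 17 above 0 in place of 5. For mt-Co1 the estimate against AAV-miR ctrl became 0.02. With the log2 erythroid sum as the covariate instead, likewise added after the levels were seen, 0 of 23 passed at an adjusted or an unadjusted p of 0.05. Of all 17403 genes, 374 and 446 passed the unadjusted threshold in the 2 comparisons with AAV-miR SOD1, against 2529 and 3635 without a covariate. All 6 erythroid markers were higher in AAV-miR SOD1 at an unadjusted edgeR p under 0.05 in both comparisons, so this covariate follows the groups. The medians of the 23 genes moved the other way, to −0.58 and −0.42, with 22 of 23 estimates below 0 in both comparisons with AAV-miR SOD1. The estimate of mt-Co1 against AAV-miR ctrl was −0.22 with that covariate. The parts of muscle RNA, of blood RNA and of the reads aligned to more than 1 place in the mitochondrial levels were not tested.

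**Figure D5:**
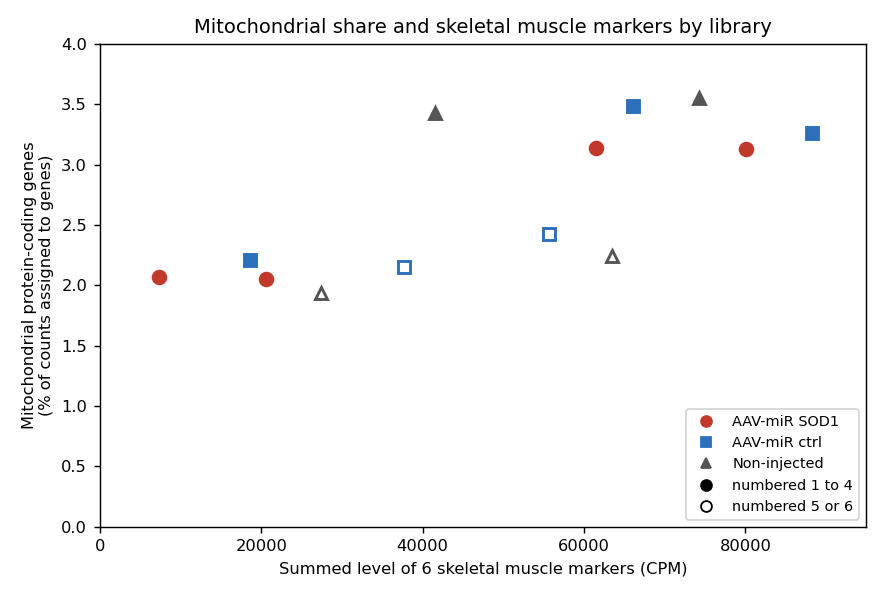
Share of counts on mitochondrial protein-coding genes (vertical axis) against the summed level of 6 skeletal muscle markers in CPM (horizontal axis), 1 point per library; open points are libraries numbered 5 or 6. Among filled points, the 3 libraries with muscle sums up to 20626 CPM had shares up to 2.21% and the other 6 had shares of at least 3.13%.

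The nuclear genes that read, process and use mitochondrial RNA were looked at beside the mitochondrial genes. No member of 5 such lists passed an adjusted p of 0.05 in edgeR's test in any comparison. At an unadjusted p under 0.05 in AAV-miR SOD1 against AAV-miR ctrl, 0 of 17 genes of mitochondrial DNA transcription and maintenance, 2 of 21 of mitochondrial RNA processing and stability, 0 of 7 biogenesis regulators, 4 of 77 mitochondrial ribosomal proteins and 0 of 77 nuclear-encoded respiratory chain subunits were counted, all with lower estimates. The 14.5% of all genes above holds both directions: of 17403 genes, 1486 were lower and 1043 higher. Against Non-injected the counts were 1, 4, 2, 11 and 1, with a higher estimate for 1 biogenesis regulator and lower ones for the others. Beside these stood 20.9% of all genes, with 2006 of 17403 lower and 1629 higher. Between the control groups the counts were 0, 1, 0, 0 and 0, beside 3.61% of all genes.

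In AAV-miR SOD1 against AAV-miR ctrl, the list medians ran from −0.19 for transcription and maintenance to −0.12 for biogenesis regulators, and against Non-injected from −0.33 for biogenesis regulators to −0.15 for transcription and maintenance, beside −0.04 and −0.09 over all genes. For the controls against each other they ran from −0.23 for biogenesis regulators to 0.00 for transcription and maintenance. With the muscle covariate the respiratory chain median against AAV-miR ctrl moved from −0.14 to 0.04, and that of biogenesis regulators from −0.12 to 0.09. With the erythroid covariate the same medians became −0.0018 and 0.14. The median of RNA processing moved from −0.19 to −0.08 with the muscle and to 0.0007 with the erythroid covariate. That of mitochondrial ribosomal proteins moved from −0.17 to −0.10 and 0.01. Against Non-injected the list medians ran from −0.18 to −0.07 with the muscle covariate and from −0.12 to 0.10 with the erythroid covariate. The cause of these shifts was not tested. The genes named next had the smallest p of their lists and did not pass the adjusted threshold in edgeR.

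Against AAV-miR ctrl these were Mterf2, of the mitochondrial transcription termination factor family, at −0.63 ± 0.33, Elac2, the nuclease that trims the 3′ ends of mitochondrial tRNAs, at −0.87 ± 0.33, and Nrf1, a transcription factor for nuclear respiratory genes, at 0.39 ± 0.23. The large-subunit ribosomal protein Mrpl39 stood at −0.49 ± 0.18 and the complex I subunit Ndufa10 at −0.47 ± 0.26. Their edgeR adjusted p ran from 0.277 to 0.452. Against Non-injected the genes were Top1mt, the mitochondrial topoisomerase, at −0.59 ± 0.25, Trmu, which modifies the wobble base of mitochondrial tRNAs including the glutamine tRNA, at −0.67 ± 0.20, and Nrf1 at 0.71 ± 0.25. Mrps10, of the small ribosomal subunit, stood at −0.61 ± 0.22 and Ndufa10 at −0.65 ± 0.27, with edgeR adjusted p from 0.14 to 0.201 over the 5 genes. Trmu passed in DESeq2 only, at −0.63 with an adjusted p of 0.0304, and its adjusted p ran from 0.0304 to 1.00 over the alternatives. With the erythroid covariate, Mterf2 turned to 0.21 and Ndufa10 to 0.15 against AAV-miR ctrl, and Ndufa10 to 0.085 against Non-injected.

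Between the control groups the genes with the smallest p were Top1mt at −0.36 ± 0.23, Grsf1, an RNA-binding protein of mitochondrial RNA granules, at −0.59 ± 0.19, Esrra, a nuclear receptor that drives nuclear genes for mitochondrial proteins, at −0.47 ± 0.33, Mrps30 at −0.61 ± 0.29 and Cox6a1 at −0.22 ± 0.21, each with an edgeR adjusted p of 1.00. The log2 fold change of Cox6a1, a complex IV subunit, turned to 0.034 and that of Esrra to 0.060 when the libraries numbered 3 were exchanged as their headers have it.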

How the data were processed

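RNA-seq was made from laser-captured lumbar motoneurons of 13 SOD1-G93A mice, starting from 5 to 6 ng of total RNA and 200 pg of complementary DNA, per the labels' protocols. The deposited tables, 1 per library, hold unnormalised counts of reads for each gene; the submitters' processing notes name cutadapt 1.8, STAR 2.5.2b, HTSeq 0.6.1 and the GRCm38 build. Read length, strand setting, counting mode and annotation release are not given in the sources used here. The 5 summary rows of each table were left out of library sizes and tests.

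Members were matched by Ensembl identifier to GENCODE M21 (GRCm38), which also gave coordinates and transcript sequences; 48349 of 48709 identifiers had a symbol. CPM used counts assigned to genes. Windows of 50 and of 100 bases were looked up in all annotated transcripts of other genes. Counts were fitted in R 4.3.3 with edgeR 4.0.16 (filterByExpr with minimum count 10 and total 15, TMM, quasi-likelihood F test on all 13 libraries, 3 groups), adjusted over 17403 genes at 0.05. The common biological coefficient of variation was 0.47. Log2 CPM used a prior count of 2; SE is the fold change over the root of F. Fits were tested on simulated counts. Shares and ratios were described without a test. Alternatives included DESeq2 1.42.0, limma-voom (limma 3.58.1), other scalings and filters, libraries 1 to 4, the header exchange, a replicate block and leaving out each library; a skeletal muscle and an erythroid covariate were added after the data were seen. Groups came from the titles. Members and gene lists were chosen with earlier results of these data known. Fold changes with a p are given for members past the threshold or, where none passed, for the member of each class with the smallest p, plus mt-Nd6 and mt-Co1; of each nuclear list, the gene with the smallest p is named. Genes of the copied stretch, mt-Tq and other genes given by level alone were chosen for their position or abundance after their values were seen.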

Additional observations from a re-analysis of the deposited data

Results flagged for a closer look

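Of 90 groups of libraries checked (30 measures of share, balance and gene level in 3 groups), 1 held a library standing apart from the rest of its group, where chance alone gives about 1 in 20. It was the phenylalanine tRNA mt-Tf, at −1.91 log2 CPM in AAV-miR ctrl library 5 against −0.61 to −0.14 in the other 4 libraries of that group. In that library mt-Tf had 7 counts.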

How the results depend on the processing

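The count of mitochondrial genes past an adjusted p of 0.05 was 0 in each comparison under every alternative run. At an unadjusted p the 0 became 2 for AAV-miR SOD1 against AAV-miR ctrl and 3 against Non-injected within libraries 1 to 4. All of these were lower, as were 2.43% and 7.64% of all genes. Adding the replicate number as a block gave 3 against AAV-miR ctrl (mt-Tq, mt-Tm and mt-Tp, all lower). Of all 17403 genes, 1535 passed there, 941 of them higher. The numbers share no stated origin, and same-number libraries correlated at −0.189 to 0.243 over 8 pairs. Only 3 of 13 libraries correlated best with their own number, so this pairing is a number only. Within libraries 1 to 4, AAV-miR SOD1 minus Non-injected became −0.00789 percentage points for the rRNA share, −0.0118 for the tRNA share, −1.11 tRNA counts per 1000 and −3.04 mt-Rnr1 counts per 100 mt-Rnr2, against 0.0013, −0.000736, 0.874 and 1.59 in all libraries. Other denominators and leaving out a library moved no share or ratio by more than its SD, but the differences in protein-coding share, all near 0, changed sign, ranging from −0.288 to 0.0871, −0.473 to 0.0657 and −0.366 to 0.173 percentage points in the 3 comparisons. Estimates changed sign as follows, and the cause was not tested. For AAV-miR SOD1 against AAV-miR ctrl, mt-Rnr2 was −0.28 with the block and −0.16 in libraries 1 to 4, mt-Co1 was 0.018 with the muscle covariate, mt-Rnr2 −0.28, Mterf2 0.21 and Ndufa10 0.15 with the erythroid covariate, and leaving out a library gave −0.33 to 0.0035 for mt-Co1 and −0.021 to 0.29 for mt-Rnr2. Against Non-injected, mt-Rnr2 was −0.27 with the block, −0.48 in libraries 1 to 4 and −0.42 with the erythroid covariate, Ndufa10 was 0.085 with that covariate, mt-Tm was 0.14 and mt-Nd6 0.030 in limma-voom, and leaving out a library gave −0.18 to 0.37 for mt-Rnr2 and −0.28 to 0.041 for mt-Nd6. Between the control groups limma-voom gave 0.25 for mt-Nd3, 0.34 for mt-Rnr2 and 0.082 for mt-Co1, the block 0.014 for mt-Rnr2, libraries 1 to 4 −0.18 for mt-Nd6, and the header exchange −0.012 for mt-Tt, 0.060 for Esrra and 0.034 for Cox6a1; leaving out a library gave −0.34 to 0.20 for mt-Nd3, −0.26 to 0.23 for mt-Rnr2, −0.10 to 0.23 for mt-Nd6 and −0.23 to 0.090 for mt-Co1. Low counts limit the tRNA genes, and shared sequence limits mt-Co1, mt-Nd3 and mt-Nd4.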
